A study of Mus musculus with 8 samples.

Results

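The Firre locus was examined in Repli-seq scores of chromosome X from mouse embryonic fibroblasts (MEFs). The locus was taken as the 500 kb bin that holds the Firre gene with 4 neighbouring bins on each side, 9 of the 343 bins of the chromosome. Of these 9 bins, 8 had usable scores on both alleles and were ranked among the 269 usable bins of the chromosome. A bin was usable when its 4 allele scores lay between −3 and 3 and none was a constant found at least 20 times in its track. The bin just distal to Firre failed this rule. Both lines were female F2 interspecific MEFs, each a sub-clone in which the inactive X chromosome (Xi) is the castaneus chromosome and the active one (Xa) the FVB chromosome. This assignment follows the study and the names of the deposited tracks, whereas the sample labels mark both the FVB and the castaneus chromosome as Xa. The wt line was clone Wt2A1, with functional SmcHD1. The mut line was clone Mut5A6, with the MommeD1 null allele of SmcHD1 carried through the germline. Each line was sorted by DNA content into G1-phase and S-phase fractions, with 2 samples of each fraction, 8 samples in all.

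SmcHD1 is a non-canonical SMC protein that is recruited to Xi and is needed for the silencing of many of its genes. Firre encodes a nuclear long non-coding RNA built from copies of a tandem repeat, and the locus carries many binding sites of CTCF, the zinc finger protein that arrests cohesin at the base of chromatin loops. On Xi, Firre and Dxz4, another tandem-repeat locus, are anchors of a superloop, a very long-range contact that is not seen on Xa. Xi is known to replicate in mid to late S phase along most of its length.

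The study describes the score as the Z-score of the S/G1 read ratio of a bin, in which a higher value means earlier replication. Allele values as high as 11555.7 (mut Xa) are too large for a Z-score taken over the bins of its own track. The exact scaling is therefore not known. The deposited tracks hold 1 pooled value per genotype, allele and bin, so no error between replicates exists, no test was possible, and the read depth behind a bin is unknown. Genotype and clone cannot be told apart. The only available guide to error was the departure of a bin from the mean of its neighbours, whose SD over bins also includes true changes of timing. It does not bound the error of the Firre bin, which is not among these bins because its distal neighbour was not ranked. Over 229 bins, it came to 0.682 and 0.717 on Xa of wt and mut, and to 0.492 and 0.915 on Xi. Within 10 Mb of Firre, over 21 bins, the same SDs were 0.858 and 0.719 on Xa and 0.612 and 0.997 on Xi. Firre also lies in a stretch that the study drew faded for low mappability.

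Firre occupied chrX:50555744-50635321 of GRCm38 on the minus strand (GENCODE M21), a length of 79578 bases or 15.9% of its bin, chrX:50500001-51000000. The RefSeq transcript had 20 exons. The reference sequence of the gene is shown first because the repeat defines the locus and the 500 kb scores cannot resolve it. Exon 10, chrX:50598134-50598288, was used as the query for the repeated RNA domain. It found 13 copies on chromosome X, all inside Firre and all in the direction of the gene. Of the 13, 12 had at least 140 bases, 11 overlapped an exon and 10 were wholly exonic. The 12 long copies together with the short one cover 1914 bases, or 0.383% of the bin. Identity of the long copies to exon 10 ranged from 92.2% to 98.7%. The following 5 are printed along the gene strand, with capitals for bases that differ from exon 10. They show the query, the longest internal deletion, the most and the least diverged exonic copies apart from that, and 1 of the intronic copies.
Exon 10 (chrX:50598134-50598288): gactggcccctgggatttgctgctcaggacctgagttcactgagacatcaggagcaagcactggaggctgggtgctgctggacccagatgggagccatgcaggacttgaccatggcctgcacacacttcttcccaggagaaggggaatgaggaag
Exon 5 (chrX:50612705-50612850): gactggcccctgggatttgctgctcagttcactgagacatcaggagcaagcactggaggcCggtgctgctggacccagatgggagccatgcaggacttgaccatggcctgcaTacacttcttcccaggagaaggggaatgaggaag
Exon 8 in part (chrX:50603371-50603524): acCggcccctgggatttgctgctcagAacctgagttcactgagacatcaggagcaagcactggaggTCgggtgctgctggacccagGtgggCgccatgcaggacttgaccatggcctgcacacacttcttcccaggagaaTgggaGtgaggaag
Exon 11 (chrX:50595461-50595614): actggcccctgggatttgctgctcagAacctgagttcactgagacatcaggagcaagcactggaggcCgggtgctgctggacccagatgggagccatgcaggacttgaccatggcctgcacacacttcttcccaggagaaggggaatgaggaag
Intron (chrX:50606008-50606161): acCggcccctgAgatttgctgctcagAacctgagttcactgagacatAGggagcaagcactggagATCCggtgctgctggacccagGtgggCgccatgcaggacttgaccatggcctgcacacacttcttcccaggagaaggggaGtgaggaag
The exon 5 copy lacked 9 bases of exon 10 and was otherwise 98.6% identical to it. The copy at exon 11 differed at 2 of 154 bases, that at exon 8 at 8 of 154 and the intronic copy at 12 of 154, or 92.2% identity. Only 86 bases of the exon 8 copy were exonic in the RefSeq transcript. The last exon, exon 20, opened with another copy, at 98.1% identity.

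The copies lay within larger repeated units. Neighbouring copies lay a median of 2669 bases apart, from 2461 to 14059. The gene was compared with itself outside masked repeats, for pairs of stretches of at least 500 bases and 80% identity. With the earlier stretch as query, 166 pairs were found, and some further pairs were found only with the later stretch as query. All of these ran in the same direction, over 17.5 to 71.4 kb from the start of the gene, with identities from 80.1% to 98.5%. The Firre bin held 27919 unmasked bases in such self-matches, and 100% of them lay inside Firre. Of the 269 ranked bins, 10.04% held at least as many, and the median bin held 0. The bin of Dxz4 held 28074. Within the window, the bin proximal to Firre held 2346 such bases and the other 7 bins held 0.

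**Figure D1:**
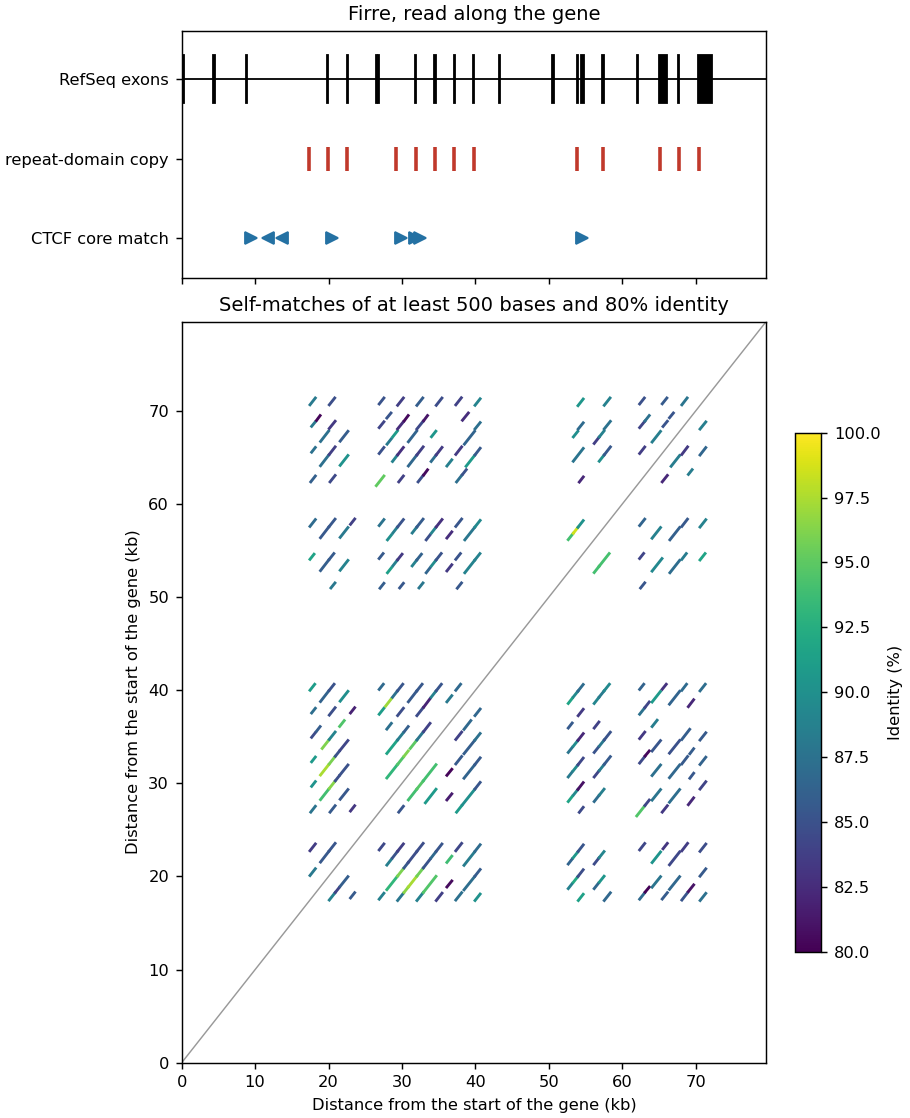
The upper panel maps the 20 RefSeq exons, the 13 copies of the repeated domain and the 8 CTCF core matches of Firre by distance in kb from the start of the gene, with arrowheads for the direction of each match along the gene. The lower panel sets the gene against itself; each line is a self-match coloured by identity, and the parallel lines between 17.5 and 71.4 kb are the tandem units.

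The core of the CTCF motif was searched on both strands as AGGNGGCGC and AGGNGGCAG, which do not overlap. Firre held 8 matches to AGGNGGCAG and 0 to AGGNGGCGC. Among 2057 stretches of chromosome X as long as Firre, 97.1% held at least 1 match to AGGNGGCAG, 12.8% held at least 8, and 24.1% held a match to AGGNGGCGC. Of the 8 matches, 6 ran along the gene strand. Of the 6, 4 are printed because they stand in nearly the same flanks, with the motif in capitals and 10 bases on each side.
chrX:50614802-50614810: gtacagggacAGGAGGCAGaagggcaggt
chrX:50605449-50605457: gtacagggacAGGAGGCAGaagggcaggt
chrX:50602815-50602823: gtacagggacAGGAGGCAGaagggcgggt
chrX:50580846-50580854: gtccagggacAGGAGGCAGaagggcgggt
Each of these 4 began 547 to 550 bases downstream of a copy of the repeated domain, in the order 550, 550, 547 and 548. After each of the other 9 copies, the stretch most similar to the first of these sites was sought over a range of distances downstream. After 7 of them its core read AGGAAGCAG, which has 8 of the 9 core bases. Some resemblance was thus selected for by the search. For 1 of the 7, the short copy, the stretch began 455 bases downstream. The remaining copies, at exon 19 and exon 20, had 4 and 7 of the 9. A match is a description of the reference sequence and not a measure of binding on either allele. Firre's promoter, chrX:50635272-50635571 (RefSeq, minus strand), had 12 CG pairs, against a median of 7 over 32851 promoters, of which 39.6% had as many or more. It held 0 matches to either motif, which 7.03% of those promoters hold.

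In wt cells, the Firre bin had a score of −0.760 on Xa and −0.163 on Xi. Xi was therefore earlier than Xa here, by 0.598, whereas Xa was the earlier allele over the chromosome as a whole, with a median difference of 0.650. Within its own track the Xa score ranked 170 from the top of 269 bins, at the 36.8th percentile, and the Xi score ranked 25, at the 90.7th percentile. Firre was thus among the earlier bins of wt Xi and below the middle of wt Xa. A shift of its score by 1 departure SD either way spans the 74.3rd to 96.3rd percentile on Xi. On Xa it spans the 11.5th to 59.1st, which includes the middle. The Xa minus Xi difference of −0.598 was the 25th lowest of the 269 bins. Xa was above Xi in 75.8% of ranked bins of wt and in 5 of the 8 ranked bins of the window. The combined departure SD of Xa and Xi was 0.841 in wt, larger than the deposited difference at Firre. With each track centred on its median, the difference of −1.13 exceeded this SD. With each track centred and then divided by its median absolute deviation it was −2.93, against a combined departure SD of 1.75 on that scale.

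In mut cells, the Firre bin had a score of 0.388 on Xa and −0.488 on Xi. Here Xa was the earlier allele, by 0.877, and the order of the alleles was opposite to that in wt. The Xa score stood at the 76.6th percentile of its track and the Xi score at the 69.5th. Xa was above Xi in 69.1% of ranked bins of mut and in 6 of the 8 bins of the window. The pattern of Firre, with Xi above Xa in wt and Xa above Xi in mut, was found in 13.4% of ranked bins and in 2 of the 8 bins of the window. The order of the alleles differed between genotypes, in either direction, in 33.5% of ranked bins. The combined departure SD in mut was 1.16, again larger than the difference. With each track centred on its median, the difference in mut came to 0.330. It was 0.231 when averaged with the usable bin beside it.

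Between genotypes, the score of the Firre bin changed by −0.326 on Xi (mut minus wt), and by 1.15 on Xa. As deposited, the change of Xa was the larger. After each track was centred on its median and divided by its median absolute deviation, the changes were −1.72 on Xi and 1.56 on Xa. The Xi change was 0.0381, of the other sign, when averaged with the usable bin beside Firre. The deposited Xa change stood at the 92.6th percentile of the 269 bins, and that of Xi at the 33.8th. Xi was higher in mut in 50.2% of ranked bins and in 4 of the 8 bins of the window, without Firre among them. Xa was higher in mut in 43.1% of ranked bins and in 5 of the 8, with Firre among them. The combined departure SD was 1.04 for the Xi change and 0.989 for the Xa change, and 1.17 and 1.12 within 10 Mb of Firre. The Xa change was 1.03 times the nearby SD, and the Xi change was 0.278 times it.

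Reads not split by allele gave scores on a scale that the sources used here do not state, which spread with SDs of 0.119 (wt) and 0.166 (mut) over the ranked bins. The Firre bin scored 0.0918 in wt and 0.165 in mut. These values stood at the 66.9th and 73.6th percentiles, so in both genotypes the locus as a whole was somewhat earlier than the median bin. The difference between genotypes was 0.0729, against a combined departure SD of 0.0904. The unsplit score was higher in mut in 51.3% of ranked bins and in 7 of the 8 bins of the window. The unsplit tracks were smoother than the allele tracks. Their departure SD came to 48.2% (wt) and 42.0% (mut) of the SD over all ranked bins, whereas for the allele tracks it was between 61.3% for wt Xa and 94.5% for mut Xi.

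**Figure D2:**
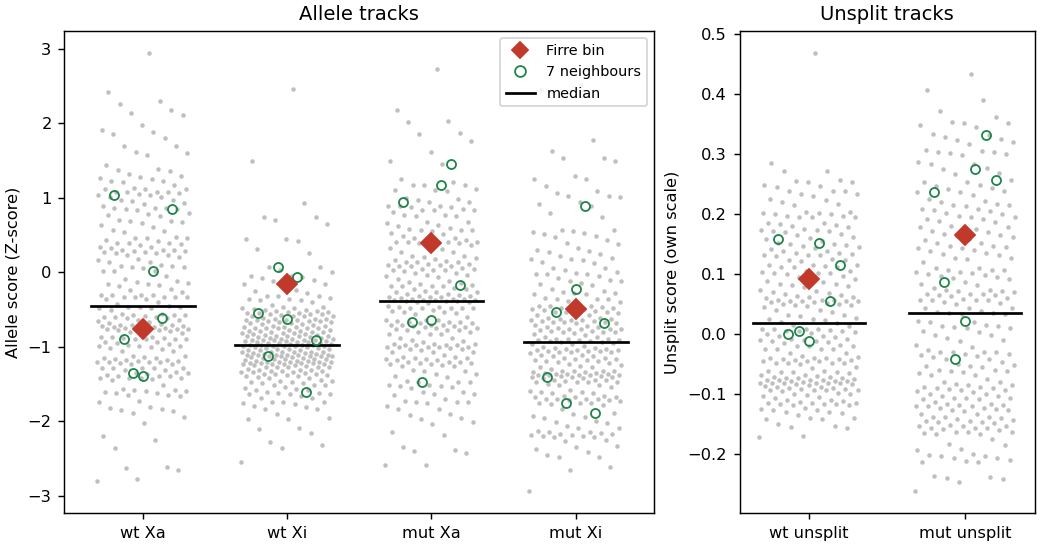
Each grey point is 1 of the 269 ranked bins, drawn by its score in each allele track (left) and unsplit track (right, on its own scale). The Firre bin (red diamond) lies above the median (black line) in all tracks except wt Xa, and highest by rank in wt Xi, at the 90.7th percentile; green circles are the 7 ranked neighbours, spread over much of each track.

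The neighbours of Firre differed in gene content and in timing. The 9 bins overlapped 27 protein-coding genes, or 3.33 a bin, with genes that span 2 bins counted in each, against a mean of 3.29 over ranked bins. The Firre bin held Stk26, a serine/threonine kinase, and Frmd7, a FERM domain protein. The 2 bins before Firre held 5 olfactory receptor genes (Olfr1320 to Olfr1324), Igsf1, an immunoglobulin superfamily gene of the pituitary, and the end of Arhgap36. The bin next to Firre was 60.01% masked repeat, against 38.2% in the Firre bin and a median of 44.2% over ranked bins.

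Immediately proximal to Firre, the bin with Olfr1323 and Olfr1324 scored −1.39 on Xa and −0.621 on Xi in wt. In mut it scored −0.634 on Xa and −0.219 on Xi, so Xi was the earlier allele in both genotypes. The bin with Igsf1, 1 Mb proximal to Firre, scored −1.35 on Xa and 0.0751 on Xi in wt. This Xi score was the highest of wt Xi in the window, at the 95.2nd percentile, beside an Xa score at the 15.6th. In mut the same bin scored −1.47 on Xa and −1.75 on Xi. Its Xi score was thus lower by 1.83 in mut, at the 3.35th percentile of the Xi changes. Together with Firre, these bins formed a run of 3 neighbouring bins with Xi above Xa in wt, with a mean difference of −0.932. Over the chromosome there were 40 such runs, of which 9 had at least 3 bins.

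Farther proximal, the bin with Enox2, a cell-surface NADH oxidase, and Arhgap36, a GTPase-activating protein, scored −0.893 on Xa and −1.12 on Xi in wt. In mut it scored −0.663 on Xa and −0.538 on Xi, a difference between alleles of −0.125. The most proximal bin was the richest in protein-coding genes, with 7, among them Aifm1, a mitochondrial flavoprotein of programmed cell death, Rab33a, a small GTPase, and Slc25a14, a mitochondrial carrier. The other 4 were Zfp280c, Gpr119, Rbmx2 and Gm595. This bin had early Xa scores, 1.04 in wt and 0.949 in mut. Its Xi scores were −0.551 in wt and −1.40 in mut, so that Xa led by 1.59 and by 2.35.

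The bin just distal to Firre holds Rap2c, a Ras-related GTPase, Mbnl3, a splicing regulator, and part of Hs6st2, a heparan sulfate sulfotransferase that reaches into the next bin. Its allele scores were 7360.45 on wt Xa, 3464 on wt Xi, −4.32 on mut Xa and −7.51 on mut Xi. These cannot be read as timing. The unsplit scores of the same bin were 0.0947 in wt and 0.255 in mut, between those of its neighbours in both genotypes. The reference has 0% gaps in this bin and 29.4% masked repeat. In the chromosome, 32 bins carried a repeated constant in an allele track and another 42 had a score past the limits. Such bins made up 22.0% of the 41 bins within 10 Mb of Firre and 21.5% of the other 302.

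Of the distal bins within the limits, the one with Usp26 and 1700080O16Rik, 1 Mb from Firre, had nearly equal deposited scores on the alleles in both genotypes. It scored 0.0222 on Xa and −0.0627 on Xi in wt, and 1.18 on Xa and 0.896 on Xi in mut. In wt these scores stood at the 59.9th percentile of Xa and the 92.9th of Xi, and in mut at the 95.2nd and the 92.9th. The next bin holds Gpc4 and most of Gpc3, glypicans that carry heparan sulfate at the cell surface. It scored −0.618 on Xa and −1.61 on Xi in wt, and 1.45 on Xa and −1.89 on Xi in mut. The Xa score of the glypican bin was higher in mut by 2.07, the largest Xa change of the 8 bins, while its Xi scores were the lowest of the window in both genotypes. The most distal bin holds part of Gpc3, the Mir106a to Mir363 cluster of microRNAs, Ccdc160, Phf6, a chromatin protein, and the start of Hprt. It scored 0.857 on Xa and −0.902 on Xi in wt, and −0.171 on Xa and −0.677 on Xi in mut.

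**Figure D3:**
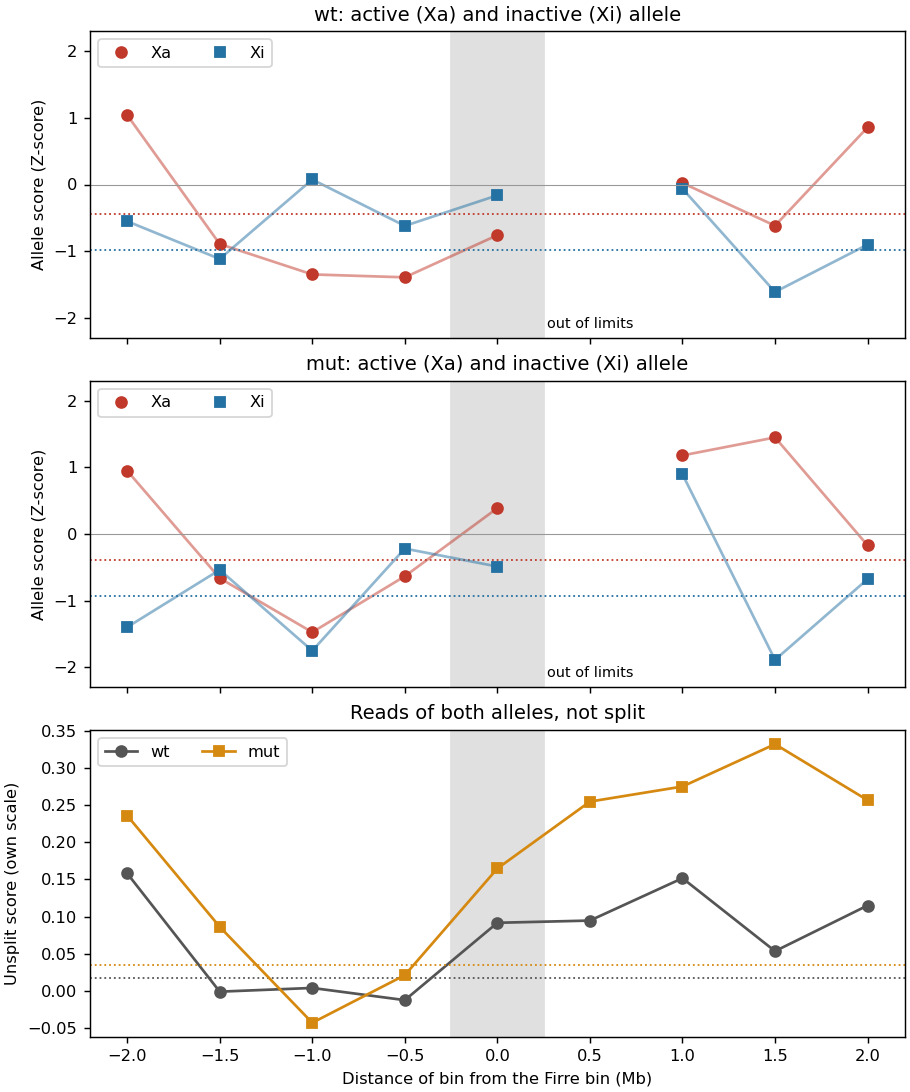
Scores by distance in Mb from the Firre bin (grey band) for Xa and Xi in wt (top) and mut (middle) and for unsplit reads (bottom, own scale), with dotted lines at the median of each track over ranked bins. Xi lies above Xa at Firre and in the 2 bins before it in wt; in mut Xa lies above Xi at Firre; the bin 0.5 Mb distal is out of limits on the alleles only.

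Across the window, the unsplit tracks stepped up at Firre. From the Olfr1323 bin into the Firre bin, the unsplit score increased by 0.104 in wt and by 0.143 in mut. Upward steps at least this large made up 12.8% and 9.88% of the 243 steps between neighbouring ranked bins. The allele tracks stepped by 0.633 on wt Xa, 0.458 on wt Xi, 1.02 on mut Xa and −0.269 on mut Xi. All of these except mut Xa were below the SD of steps in their track, which was 0.967, 0.634, 0.908 and 1.13. On Xa, the 3 ranked distal bins averaged 0.0871 in wt and 0.819 in mut, and the 4 proximal bins −0.648 and −0.456. The sides were compared after their values had been seen.

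Averaged over the 8 ranked bins, the mean lead of Xa over Xi was 0.233 in wt (SD 1.15, n = 8 bins) and 0.886 in mut (SD 1.30). Over all 269 bins the mean lead was 0.684 (SD 1.15) in wt and 0.454 (SD 1.03) in mut. The mut mean of the window was raised by 2 bins, with leads of 2.35 and 3.34. The median lead over the window was 0.154 in wt and 0.395 in mut, against 0.650 and 0.468 over the chromosome, so in mut the mean lay above that of the chromosome and the median below it. The Xi score changed from wt to mut by −0.139 ± 0.890 on average, and the Xa score by 0.515 ± 0.965. Over all ranked bins these changes were 0.104 ± 1.11 and −0.127 ± 0.985. With 8 neighbours on each side they were 0.0511 and 0.0897, so the direction of the Xi change depends on the width of the window. The wt mean of 0.233 depends on the width of the window and on the scaling. It was −0.677 with 2 neighbours on each side, 0.787 with 8, and −0.302 when each track was centred on its median. The mut mean was 0.256 with 2 neighbours on each side.

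**Figure D4:**
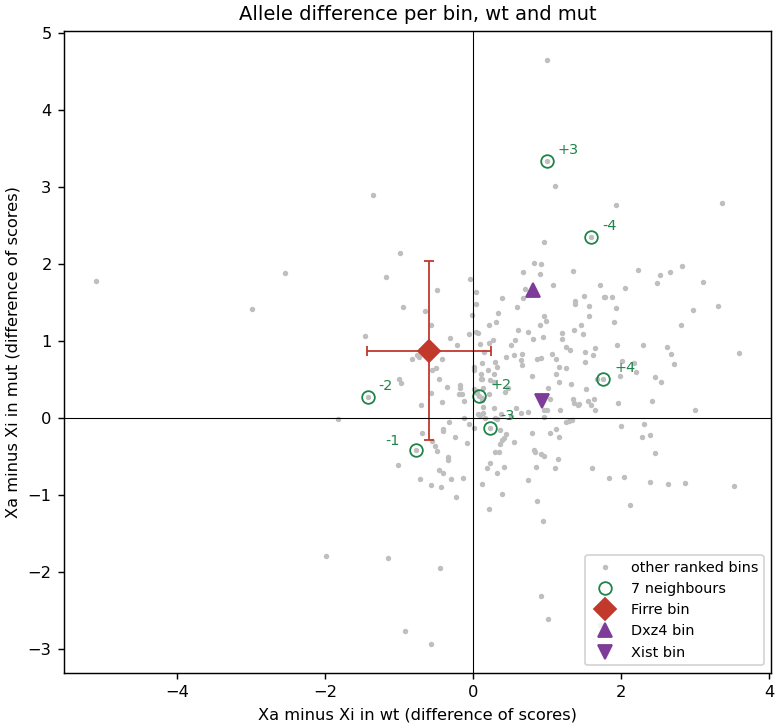
Xa minus Xi in wt (x axis) and in mut (y axis) for the 269 ranked bins, with the 7 ranked neighbours numbered by their distance in bins from Firre. The Firre bin lies at −0.598 and 0.877, to the left of 0 and above it, with bars of 1 combined departure SD (0.841 and 1.16) that reach past 0 on both axes; the Dxz4 bin lies at 0.813 and 1.66.

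The other superloop anchor, Dxz4, is annotated as 4933407K13Rik at chrX:75706932-75764699, in the bin from 75500001 to 76000000. The Dxz4 bin scored 0.257 on Xa and −0.556 on Xi in wt, and 0.992 on Xa and −0.671 on Xi in mut. Its wt Xi score stood at the 80.3rd percentile, against the 90.7th of Firre, and its wt Xa score at the 65.4th, against the 36.8th. On the deposited scale Xa was thus above Xi at Dxz4 in both genotypes, by 0.813 in wt and by 1.66 in mut. By percentile the order turned from wt to mut, since in mut the Dxz4 bin stood at the 92.2nd percentile on Xa and the 61.3rd on Xi. The same turn was seen at Firre and in the bin of Xist, so it is not particular to the anchors. The share of all ranked bins with this turn was not counted. The order of the alleles at Dxz4 in wt therefore depends on the scale. From wt to mut, the Xi score changed by −0.114 at Dxz4 and by −0.326 at Firre, and the Xa score by 0.735 and 1.15. Of these 4 changes, the Xa change at Firre exceeded its combined departure SD over the chromosome (0.989) and the other 3 did not; the difference between the anchors was not tested.

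Xist, the gene of the RNA that coats Xi, lies at chrX:103460366-103483254. Its bin scored 1.38 on Xa and 0.443 on Xi in wt, and 1.26 and 1.03 in mut. Xa was above Xi on this scale in both genotypes, but in wt the bin stood at the 92.6th percentile on Xa and the 96.7th on Xi. In mut it stood at the 95.9th percentile on Xa and the 94.4th on Xi. Hprt, a housekeeping gene subject to silencing on Xi, spans the boundary between the last bin of the window and the next. In that next bin, Xa led Xi by 2.06 in wt and by 1.70 in mut. On the deposited scale, Xi was above Xa in wt at Firre and not at Dxz4, Xist or either Hprt bin, and 24.2% of ranked bins had this order. By percentile, Xi stood above Xa in wt at Firre, Dxz4 and Xist, as in 48.0% of ranked bins.

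Outside the window, the bins whose 4 allele scores lay nearest those of Firre held different kinds of genes. The nearest, at a Euclidean distance of 0.620 against a median of 2.05 over 261 bins, was chrX:38000001-38500000. It holds the Rhox10 to Rhox13 homeobox genes of the reproductive tract, Btg1-ps1, Btg1-ps2, Zbtb33, Tmem255a, Atp1b4 and Lamp2, a lysosomal membrane protein. It scored −0.898 on Xa and −0.436 on Xi in wt, and −0.130 and −0.635 in mut. Another, chrX:162000001-162500000 at 0.633, holds Nhs and Reps2. It scored −0.401 on Xa and −0.505 on Xi in wt, so that Xa was above Xi there, unlike at Firre, and 0.414 and −0.0969 in mut. Both distances are smaller than the combined departure SD of the 4 tracks, 1.43, and so lie within that spread of single bins.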

How the data were processed

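Repli-seq was analysed for 8 samples, 2 per genotype and sorted fraction (G1 or S phase), from 1 clone each. The authors mapped reads with Bowtie2 (version not given in the sources used here) to mm10 with SNP positions masked, and split them by allele. They deposited 1 score per 500 kb bin, described as the Z-score of the read-number-normalized S/G1 ratio. They also deposited a score for unsplit reads, on an unstated scale. The bins behind the mean and SD of each Z-score are not stated, and values up to 11555.7 (mut Xa) are too large for a Z-score over the bins of that track. Replicates are pooled, so there were no tests and depth is unknown.

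Percentiles are the share of the 269 ranked bins with a lower score. The end of the last bin, 171031299, matched chromosome X of GRCm38.p6, so GENCODE M21 genes, RefSeq exons, promoters and sequence were taken from that build. Copies were found with BLAST 2.17.0 and, for the percent identity, aligned with Biopython 1.88. Python 3.11.15, numpy 2.4.6, pandas 2.3.3 and matplotlib 3.10.9 were used, and the percentile and departure functions were tested on simulated data. Named genes were Firre, all protein-coding genes of the 9 bins, Dxz4, Xist, Hprt, and the genes of the 3 bins nearest Firre in their allele scores, of which 1 bin is not reported here. The members and lists were chosen with earlier results of these data known. Alternatives covered the limits, the repeated constant, smoothing, rescaling and the width of the window.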

Additional observations from a re-analysis of the deposited data

Results flagged for a closer look

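In 3 of the 8 ranked bins of the Firre window, Xa minus Xi had opposite signs in wt and mut, as in 33.5% of all ranked bins. At Firre it was −0.598 in wt and 0.877 in mut. In the bin with Igsf1, 1 Mb proximal, it was −1.42 in wt and 0.278 in mut, and in the bin with Enox2, 1.5 Mb proximal, it was 0.224 in wt and −0.125 in mut. With each track centred on its median, an alternative chosen after seeing the data, the Igsf1 bin had −1.96 and −0.269 and the Enox2 bin −0.311 and −0.671, so their signs no longer differed, whereas that of Firre still did. Each value comes from 1 pooled track per allele, and the difference between wt and mut was not tested.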

How the results depend on the processing

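For 14 results, 76 alternative values were computed. Of these, 61 counted as unmoved, 9 as moved, and 6 had the other sign. A difference counted as unmoved when it kept its sign and moved by less than 1 spread. A percentile counted as unmoved when it stayed within the range that 1 departure SD of the score allows. Of the 61 unmoved values, 35 were percentiles, so the differences moved or reversed more often than the pooled count shows. The spread was the departure SD on the scale of each setting, and values were compared as multiples of it. For window means it was divided by the square root of 8, the ranked bins of the window, also in settings with more or fewer bins. This treats neighbouring bins as independent. Of 36 alternative percentiles of the Firre bin, 35 stayed within the range that 1 departure SD allows. That of mut unsplit reads was 61.0 with a running mean of 3 bins. These ranges were wide, such as 27.9 to 88.8 in mut Xi and 11.5 to 59.1 in wt Xa, so staying within them is a weak check. The setting of a constant found 5 or more times ranked the same 269 bins, so it could not move any percentile. Limits applied to the ranked track alone left the unsplit percentiles as they were for the same reason. The 2 differences between alleles at Firre had the same sign in all 3 alternatives each. However, that in mut came to 0.330 after centring and 0.231 with the usable bin beside it. That in wt came to −1.13 after centring alone, and to −2.93 after centring and division by the median absolute deviation. Centring, added after seeing the data for 2 neighbours of Firre, gave the other sign to Xa minus Xi in wt in the Enox2 bin (−0.311) and in mut in the Igsf1 bin (−0.269). The Xi change at Firre was 0.0381 when averaged with the usable bin beside it. The window mean of Xa minus Xi in wt was −1.04 after centring and division by the median absolute deviation, and −0.302 after centring alone. It was −0.677 with 2 neighbours, 0.787 with 8 and 433 without limits. In mut it was 0.452 and 0.340 after the same 2 rescalings, 0.256 with 2 neighbours and 0.395 as a median over bins. The window mean of the Xi change was 0.0511 with 8 neighbours and −386 without limits, and that of the Xa change was 0.0897 and −818. Without limits, the bin distal to Firre enters; the other causes were not tested. No paired analysis was possible because each bin has 1 pooled value, which also means that no replicate could be left out. Unknown depth limits every single-bin value.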
